A study of Homo sapiens with 6 samples.

Results

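The genes described here are 10 components of the desmosome, namely DSP, DSG2, DSG3, DSC2, DSC3, PKP1, PKP2, PKP3, JUP and PPL, out of 36517 genes in the count table. They were selected by name on the strength of this same comparison, in which DSP and DSG2 were among the largest decreases, so their differences between the groups are given as a description and without p-values. Messenger RNA was sequenced at day 3 in the human breast cancer line MDA-MB-453, which is known for expression of the androgen receptor, and all 6 libraries came from lentivirus-transduced cells of this one line. The 3 control libraries carried a negative-control hairpin (shNC), and the 3 shtRF libraries carried a hairpin against tRF-1-Ser, a small RNA released from the 3′ trailer of a serine tRNA precursor. One hairpin per group is named, and whether the replicates stem from independent infections was not given in the sources used here, so the errors measure the spread between these libraries, which may be technical. The target is a small RNA that mRNA libraries do not measure, so in these data the group names rest on the labels. The authors report a qPCR check of their knockdown models.

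Desmosomes are the junctions that rivet neighbouring epithelial cells together and tie the contact to the keratin filaments inside them. The desmogleins (DSG) and desmocollins (DSC) are cadherins that span the membrane and bind their counterparts on the next cell. Their tails are held by the armadillo proteins plakoglobin (JUP) and plakophilin (PKP), and desmoplakin (DSP), a plakin, links these to keratin. Simple and glandular epithelia, breast included, are known mainly for DSG2 and DSC2, whereas DSG1, DSG3, DSC1 and DSC3 are characteristic of stratified epithelia such as skin.

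The library totals ran from 63541413 to 78917459 counts, so that 3 counts, taken here as the floor of detection in 1 library, corresponded to 0.0380 to 0.0472 CPM (counts scaled to a common library size). The floor covers counting error only. Libraries of a group correlated at 0.9973 to 0.998 over the tested genes. Luminal epithelial markers marked every library, with summed levels of 10918 to 11778 CPM in control and 13516 to 14855 CPM in shtRF, and all 10 of the list were tested. Basal epithelial markers were low and lower still in shtRF, summing to 13.4 to 14.5 CPM in control and 7.27 to 7.91 CPM in shtRF. Of the 8 basal markers 6 were tested and 4 were lower, against 18.9% of all genes tested. KRT14 and ACTA2 were too low to test, and the part of this shift in the desmosomal results was not tested. Mesenchymal and stromal markers summed to 29.8 to 35.7 CPM in control and 20.6 to 21.4 CPM in shtRF, nearly all of it COL1A1, while VIM was at the floor in both groups (0, 0 and 4 counts in control and none in shtRF). Immune and endothelial markers summed to at most 0.771 CPM in any library.

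All 10 genes were in the table and 8 had enough counts to be tested with edgeR's quasi-likelihood test over all genes. Among these 8, 5 were lower in shtRF (DSP, DSG2, DSC2, PKP1 and PKP2), 1 was higher (PPL) and 2 were past the threshold in neither direction (JUP and PKP3). For comparison, 18.9% of the 19628 genes tested were lower and 20.6% were higher at an adjusted p under 0.05. All 5 were lower by over 2-fold, which held for 3.11% of the genes tested, and in all 5 the 3 shtRF libraries lay below the 3 control libraries, which held for 23.8%. Nothing was read from these counts about the genes themselves, since the comparison had served to select them. The median log2 fold change of the 8 genes was -1.50, against -0.0025 for all genes tested. Summed over the 10 genes, the control libraries held 521 to 573 CPM and the shtRF libraries 293 to 317 CPM.

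**Figure D1:**
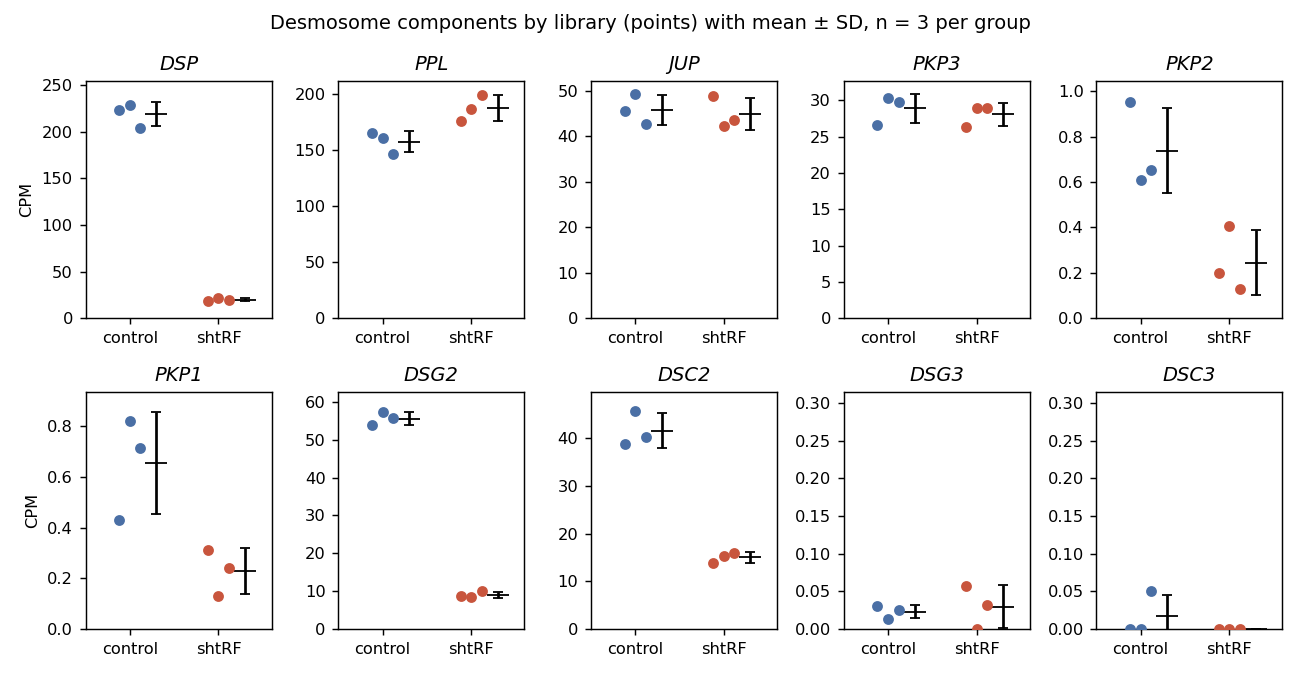
CPM of the 10 desmosome components in each library, on linear axes that start at 0, with 3 control (blue) and 3 shtRF (red) libraries and the mean ± SD beside them. DSP, DSG2 and DSC2 show wide gaps between the groups, PKP1 and PKP2 show smaller gaps at levels under 1 CPM, JUP and PKP3 overlap, PPL is higher in shtRF, and DSG3 and DSC3 lie at the floor.

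Desmoplakin, the link from the junction to keratin, showed the widest difference. DSP (chromosome 6, 7541575 to 7586717, plus strand, GRCh38, 24 merged exons) was covered by 14547, 17244 and 16281 counts in control and 1304, 1463 and 1202 in those of shtRF. The values correspond to 224, 228 and 204 CPM against 18.6, 21.3 and 19.4 CPM. Every shtRF library was far below every control library, and neither group spread widely. Mean CPM was 219 ± 12.9 (SD, n = 3) for the control group and 19.7 ± 1.41 for the shtRF group, an 11.1-fold difference with a log2 fold change of -3.47 ± 0.07 (SE). In these bulk libraries, fewer cells with DSP mRNA and less DSP mRNA per cell cannot be told apart. Of the 19628 genes tested, DSP ranked 19 from the most negative log2 fold change. Per length, DSP went from 22.1 to 1.92 RPKM (counts scaled by exonic length and library total), so that 89.5% of the tested genes had a lower mean RPKM in control and 46.2% did in shtRF.

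Both cadherins that carried nearly all desmosomal cadherin reads were lower as well. DSG2 (chromosome 18, 31498043 to 31549008, plus strand) had 3512, 4326 and 4451 counts in control and 609, 573 and 616 in shtRF. Its level was 54.0, 57.2 and 55.7 CPM in control against 8.67, 8.34 and 9.93 CPM in shtRF, and the groups stood well apart. The means were 55.6 ± 1.64 and 8.98 ± 0.839 CPM (SD, n = 3), a 6.20-fold difference with a log2 fold change of -2.63 ± 0.07 (SE), ranked 50 among the tested genes. DSC2 (chromosome 18, 31058840 to 31102415, minus strand) had 2520, 3461 and 3220 counts in control and 965, 1045 and 994 in shtRF. On the CPM scale these were 38.7, 45.8 and 40.3 against 13.7, 15.2 and 16.0, again without overlap. Mean DSC2 CPM was 41.6 ± 3.71 for control libraries and 14.99 ± 1.16 for shtRF libraries, a 2.78-fold difference with a log2 fold change of -1.47 ± 0.08 (SE) and rank 300. The 2 cadherins therefore did not keep their proportion: the ratio of DSG2 to DSC2 RPKM was 2.68 ± 0.160 in control and 1.20 ± 0.0897 in shtRF.

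The cadherins of stratified epithelia were at the floor of detection in both groups. DSG3 (chromosome 18, 31447795 to 31478702) had 2, 1 and 2 counts in control and 4, 0 and 2 in shtRF. DSC3 (chromosome 18, 30990008 to 31042815) had 0, 0 and 4 counts in control and none in shtRF, which allows up to 3 counts in each shtRF library. Both were at or near the floor, were not tested and are given no fold change. DSG1, DSG4 and DSC1, which lie in the same gene cluster, were not tested either, and no untested gene of the cluster exceeded 20 counts in any library.

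Plakoglobin, which binds the tails of desmosomal and classical cadherins, showed no difference beyond the spread between libraries. JUP (chromosome 17, 41754604 to 41786931, minus strand) had 2969, 3725 and 3413 counts in control and 3441, 2899 and 2710 in shtRF, or 45.6, 49.3 and 42.7 CPM against 49.0, 42.2 and 43.7 CPM. The groups overlapped. Means of 45.9 ± 3.29 CPM in control and 44.9 ± 3.56 CPM in shtRF gave a log2 fold change of -0.03 ± 0.07 (SE) with a 95% interval of -0.16 to 0.10. The ratio of DSG2 to JUP RPKM was 0.971 ± 0.0615 in control and 0.160 ± 0.0202 in shtRF. For DSC2 the ratio to JUP was 0.362 ± 0.0204 and 0.134 ± 0.0192, and for DSP it was 2.33 ± 0.0662 and 0.217 ± 0.0308.

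PKP3, the plakophilin that supplied nearly all plakophilin reads, likewise stayed within its spread. PKP3 (chromosome 11, 392614 to 404908, plus strand) had 1730, 2288 and 2374 counts in control and 1846, 1986 and 1796 in shtRF. The corresponding levels were 26.6, 30.3 and 29.7 CPM against 26.3, 28.9 and 28.9 CPM, with overlapping groups. Means of 28.9 ± 1.99 and 28.0 ± 1.54 CPM gave a log2 fold change of -0.04 ± 0.07 (SE) and a 95% interval of -0.18 to 0.09. A difference of JUP or PKP3 as large as that of DSC2 thus lay outside their intervals.

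The other plakophilins were rare in both groups. PKP1 (chromosome 1, 201283452 to 201332993), known from stratified epithelia, had 28, 62 and 57 counts in control and 22, 9 and 15 in shtRF. PKP2 (chromosome 12, 32790745 to 32896840), known from simple epithelia and heart, had 62, 46 and 52 counts in control and 14, 28 and 8 in shtRF. Neither gene's groups overlapped, but control replicate 1 and shtRF replicate 1 of PKP1 were only 6 counts apart, at 0.430 and 0.313 CPM. PKP1 went from 0.655 ± 0.202 to 0.229 ± 0.0917 CPM, a log2 fold change of -1.52 ± 0.42 (SE), and PKP2 from 0.737 ± 0.188 to 0.245 ± 0.145 CPM, a log2 fold change of -1.57 ± 0.42 (SE). Each had a shtRF library under 10 counts (9 for PKP1 and 8 for PKP2), and with at least 10 counts required in every library neither was tested, which left 3 of the 10 genes lower.

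Periplakin, a plakin of the cornified envelope and of desmosomes in differentiating epithelia, was higher in shtRF. PPL (chromosome 16, 4882507 to 4960741, minus strand) had 10727, 12138 and 11722 counts in control and 12372, 12834 and 12330 in shtRF. The control libraries held 165, 161 and 147 CPM and the shtRF libraries 176, 187 and 199 CPM, so the groups did not overlap although the nearest values were close. Means of 157 ± 9.45 and 187 ± 11.3 CPM gave a log2 fold change of 0.25 ± 0.06 (SE), or a 1.19-fold higher level. The RPKM ratio of DSP to PPL went from 1.06 ± 0.0246 to 0.0804 ± 0.00629.

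The promoter windows of the 3 abundant genes that were lower and of JUP, which showed no difference, are printed here so that the starts of these genes can be compared. Each is the 250 bases before a RefSeq start on GRCh38.p14, read 5′ to 3′ on the gene's strand, and where RefSeq lists several starts the one nearest to the gene's 5′ end in the count table was taken. Capitals mark CAGGTG, the E-box letters read on either strand, so that CACCTG is its reverse complement.
DSP (chr6:7541421-7541670, plus strand): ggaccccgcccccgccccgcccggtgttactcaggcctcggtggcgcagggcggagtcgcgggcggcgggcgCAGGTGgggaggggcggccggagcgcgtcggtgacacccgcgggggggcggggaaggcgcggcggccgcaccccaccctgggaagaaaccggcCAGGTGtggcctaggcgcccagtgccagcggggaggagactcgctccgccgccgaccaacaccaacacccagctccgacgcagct
DSG2 (chr18:31497927-31498176, plus strand): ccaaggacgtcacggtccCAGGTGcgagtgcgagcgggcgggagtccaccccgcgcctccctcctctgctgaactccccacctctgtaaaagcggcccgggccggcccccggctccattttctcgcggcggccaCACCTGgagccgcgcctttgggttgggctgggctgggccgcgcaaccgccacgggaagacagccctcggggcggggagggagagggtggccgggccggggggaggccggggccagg
DSC2 (chr18:31102422-31102671, minus strand): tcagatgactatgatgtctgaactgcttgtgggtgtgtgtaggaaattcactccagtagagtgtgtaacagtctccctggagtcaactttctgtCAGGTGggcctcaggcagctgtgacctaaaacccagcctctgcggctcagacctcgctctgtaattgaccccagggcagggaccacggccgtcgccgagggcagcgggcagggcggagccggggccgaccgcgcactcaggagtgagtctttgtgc
JUP (chr17:41786712-41786961, minus strand): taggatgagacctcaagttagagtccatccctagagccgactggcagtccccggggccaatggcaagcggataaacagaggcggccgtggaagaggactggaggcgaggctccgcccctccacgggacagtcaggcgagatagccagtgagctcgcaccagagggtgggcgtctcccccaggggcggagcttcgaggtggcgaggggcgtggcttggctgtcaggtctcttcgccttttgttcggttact

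RefSeq windows were found for 7 of the 10 genes, in 9 windows in all (PKP2, PKP3 and PPL had no entry). CAGGTG stood in the windows of DSP (beginning 178 and 85 bases before the start), DSG2 (232 and 116 bases before) and DSC2 (156 bases before), and in none of the nearest windows of JUP, PKP1, DSG3 and DSC3. RefSeq lists a more downstream start for DSC2 and for JUP as well, and the window there held no match for DSC2 and 2 for JUP. Over all 35116 promoter windows of that length, 17.5% held CAGGTG. In the count table DSP begins 96 bases and DSG2 134 bases before the RefSeq start, so the nearer DSP match and the nearer DSG2 match lie inside their first annotated exon there. JUP begins 220 bases before its RefSeq start, so most of its 250 printed bases lie inside the gene there. The windows thus do not cover like regions of these genes. The GC box GGGCGG, on either strand, occurred 7 times in the DSP window, 2 times in that of DSG2, once in that of DSC2 and 2 times in that of JUP, and 42.6% of all windows held at least 1. The grainyhead letters AACNNGTT and the AP-1 letters TGANTCA were in none of the 9 windows, against 3.0% and 6.57% of all windows, and no match to one motif overlapped a match to another. The DSP window was 78.0% G or C and the DSG2 window 75.2%, against 59.6% for DSC2, 63.6% for JUP and a median of 58.0% over all windows. These are matches of letters and say nothing about which factors bind.

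Levels were compared between genes only per length. In control the order of mean RPKM was DSP (22.1 ± 1.44), PPL (20.9 ± 1.35), JUP (9.46 ± 0.741), DSG2 (9.16 ± 0.308), PKP3 (7.76 ± 0.550), DSC2 (3.43 ± 0.325), PKP1 (0.107 ± 0.0334), PKP2 (0.107 ± 0.0270), DSG3 and DSC3. The neighbours DSP and PPL, JUP and DSG2, and PKP1 and PKP2 lay within each other's spread there. In shtRF the order was PPL (23.9 ± 1.17), JUP (8.94 ± 0.932), PKP3 (7.27 ± 0.243), DSP (1.92 ± 0.0953), DSG2 (1.42 ± 0.136), DSC2 (1.19 ± 0.0729), PKP1 (0.0364 ± 0.0153) and PKP2 (0.0340 ± 0.0195), followed by DSG3 and DSC3. DSP thus moved from place 1 to place 4, and PPL, JUP and PKP3 led the list in shtRF. Among the tested genes, 77.6% had a lower mean RPKM than DSG2 in control and 40.8% in shtRF, and for DSC2 these shares were 57.7% and 37.4%. They were 78.1% and 77.6% for JUP, 74.7% and 74.0% for PKP3, and 88.9% and 90.2% for PPL.

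Within each family the leading paralog remained the leading one. DSG2 made up 99.9% ± 0.0397 of the summed desmoglein RPKM in control and 98.3% ± 0.201 in shtRF, while the sum went from 9.17 ± 0.305 to 1.45 ± 0.136 RPKM. The remaining desmoglein share came from at most 8 counts of a gene in a library, which leaves it close to the floor. DSC2 made up 98.8% ± 0.934 of the desmocollins in control and 98.8% ± 0.616 in shtRF, and their sum went from 3.47 ± 0.314 to 1.20 ± 0.0765 RPKM.

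For the plakophilins the share of PKP3 was 97.3% ± 0.131 in control and 99.0% ± 0.196 in shtRF, with PKP1 at 1.33% and 0.499% and PKP2 at 1.36% and 0.464%. The plakophilin sum was 7.98 ± 0.556 RPKM in control and 7.34 ± 0.233 RPKM in shtRF. The plakins DSP, PPL and envoplakin (EVPL, the partner of periplakin and not one of the 10 genes) differed in make-up. DSP held 18.4% ± 0.888 of their RPKM in control and 1.85% ± 0.121 in shtRF, PPL 17.4% ± 0.441 and 23.1% ± 0.948, and EVPL 64.3% ± 1.33 and 75.1% ± 0.946. EVPL itself was at 77.3 ± 6.10 RPKM in control and 77.8 ± 1.38 RPKM in shtRF, so its share rose as the DSP part shrank. Summed plakin RPKM was 120 ± 8.19 in control and 104 ± 1.62 in shtRF.

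**Figure D2:**
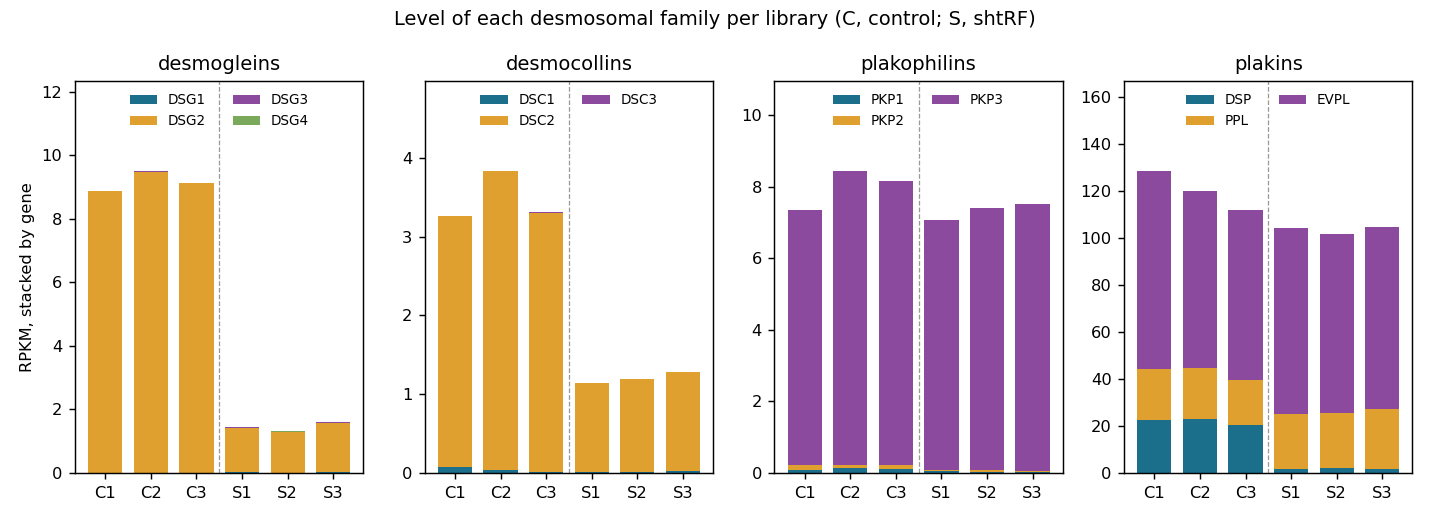
RPKM of each desmosomal family in each library, stacked by gene, for control libraries C1 to C3 and shtRF libraries S1 to S3, on linear axes that start at 0. The desmoglein and desmocollin bars are almost all DSG2 and DSC2 in both groups and are shorter in shtRF, the plakophilin bars are almost all PKP3 and similar in height, and the DSP segment of the plakin bars shrinks from 18.4% to 1.85% on average.

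The desmosomal cadherin genes stand side by side on chromosome 18, from 30990008 to 31549008, and the genes around them were examined to see what else differed at the locus. The table held 24 genes within 500 kb of this 559 kb stretch, of which 9 were tested, 5 were lower in shtRF and none was higher. Of all genes tested, 18.9% were lower and 20.6% higher. The 5 include DSC2 and DSG2, which were selected with this comparison known, so their number is a description only. The other 7 tested genes were DSG2-AS1, B4GALT6, TRAPPC8, RNF125, LRRC37A7P, RP11-326K13.4 and RP11-53I6.2. DSG2-AS1, an antisense noncoding gene that overlaps the 3′ end of DSG2, had 703, 883 and 952 counts in control and 112, 86 and 118 in shtRF. Its level went from 11.5 ± 0.589 to 1.58 ± 0.325 CPM (log2 fold change -2.86 ± 0.13, SE, edgeR adjusted p = 1.86e-13). It shares 8.45% of its exonic bases with DSG2, and DSG2 shares 2.76% of its own with other genes. The libraries were strand-specific, but the strand setting of the counting was not given in the sources used here, so reads of DSG2 and DSG2-AS1 may not be fully separated.

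B4GALT6, a glycosyltransferase gene that lies 3′ of DSG2, fell from 3.39 ± 0.177 to 2.04 ± 0.272 CPM (log2 fold change -0.73 ± 0.15, edgeR adjusted p = 6.13e-04). LRRC37A7P, a pseudogene under 1 CPM, was also lower (-1.94 ± 0.63, edgeR adjusted p = 0.0181). TRAPPC8, a subunit of a vesicle-tethering complex, was at 19.96 ± 1.89 and 20.7 ± 0.591 CPM (0.05 ± 0.08, edgeR adjusted p = 0.648). RP11-326K13.4 (0.21, edgeR adjusted p = 0.498), with 32.9% of its exonic bases shared, and RP11-53I6.2 (-0.50, edgeR adjusted p = 0.0887), whose exonic bases are all shared with other genes, mainly RNF125, did not pass the threshold. RNF125 had a log2 fold change of -0.62 (edgeR adjusted p = 0.524). The lower cadherin genes DSC2 and DSG2 are not adjacent, and between them lie DSC1, DSG1, DSG4 and DSG3 with at most 20 counts each.

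**Figure D3:**
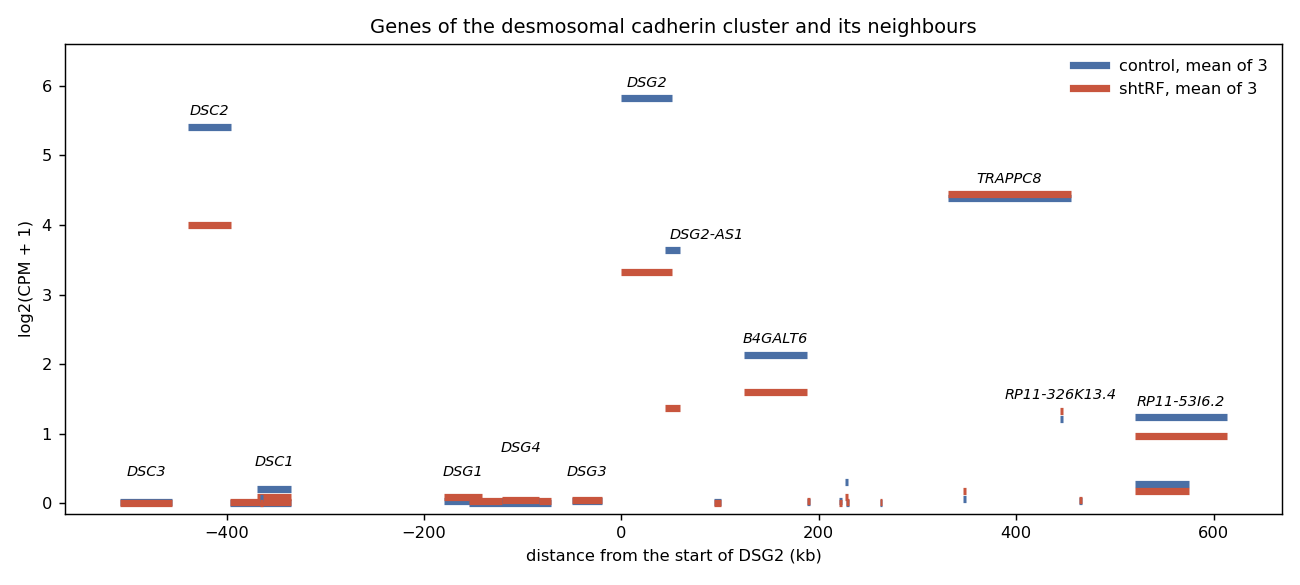
Mean level of each gene of the cadherin cluster and its neighbours, as log2(CPM + 1) against distance from the start of DSG2 in kilobases, with control in blue and shtRF in red and each bar spanning its gene. DSC2, DSG2 and DSG2-AS1 drop between the groups, B4GALT6 drops less, TRAPPC8 is at similar levels, and DSC3, DSC1, DSG1, DSG4 and DSG3 lie near 0 in both.

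In a list of 9 other desmosomal genes, 6 were tested, 2 were lower and 2 higher (18.9% and 20.6% of all genes tested). Their median log2 fold change was -0.02. PERP, a tetraspan membrane protein of desmosomes, rose from 29.3, 28.3 and 28.0 CPM to 54.4, 51.5 and 58.3 CPM (0.94 ± 0.06, edgeR adjusted p = 4.16e-11). EPPK1, which encodes the plakin epiplakin, rose slightly (0.20 ± 0.05, edgeR adjusted p = 0.00477). CDSN, which encodes corneodesmosin of the cornified layer, was lower (-1.09 ± 0.10, edgeR adjusted p = 6.89e-09), but 93.8% of its exonic sequence is shared, mainly with PSORS1C1. KAZN, which encodes the periplakin-binding protein kazrin, was lower too (-0.74 ± 0.15, edgeR adjusted p = 3.03e-04), with 24.9% of its exonic bases shared. EVPL, the most abundant gene of the list, was at 570 ± 44.5 and 595 ± 4.61 CPM (0.06 ± 0.06, edgeR adjusted p = 0.423), and PKP4 had a log2 fold change of -0.11 (edgeR adjusted p = 0.102).

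Adherens junctions join the same cells through classical cadherins, catenins and nectins. Of 17 genes listed, 14 were tested, 4 were lower and 5 were higher (18.9% and 20.6% of all genes tested). The median log2 fold change was 0.08. Among the falls were CDH2 (N-cadherin, -1.40 ± 0.11, edgeR adjusted p = 7.29e-10), CTNND2 (-0.48 ± 0.06, edgeR adjusted p = 9.54e-07) and CTNNB1 (beta-catenin, -0.33 ± 0.06, edgeR adjusted p = 8.52e-05). CDH3 (P-cadherin, 0.77 ± 0.11, edgeR adjusted p = 8.90e-06), CDH1 (E-cadherin, 0.28 ± 0.07, edgeR adjusted p = 0.00288) and NECTIN4 (0.25 ± 0.05, edgeR adjusted p = 6.41e-04) rose. CTNNA1, which encodes alpha-catenin and was the most abundant per length, had a log2 fold change of 0.07 (edgeR adjusted p = 0.331). CDH1 went from 18.6 ± 0.963 to 22.6 ± 0.975 CPM, against the 6.20-fold lower level of DSG2.

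Hemidesmosomes tie keratin to the basement membrane with other plakins and an integrin. All 8 listed genes were tested, 1 was lower and 5 were higher (18.9% and 20.6% of all genes tested). Their median log2 fold change was 0.40. Of the higher genes, LAMA3 was near the floor, with 4, 4 and 6 counts in control and 16, 22 and 12 in shtRF. DST, which encodes the plakin dystonin, rose from 207 ± 4.40 to 603 ± 16.2 CPM (1.54 ± 0.05, edgeR adjusted p = 1.98e-15). The DST counts pool 113 merged exons, so which of its transcripts rose was not tested. ITGB4, the integrin beta chain (0.64 ± 0.09, edgeR adjusted p = 2.94e-06), LAMB3, a laminin chain (0.41 ± 0.13, edgeR adjusted p = 0.0123), and PLEC, which encodes plectin and was the most abundant (0.39 ± 0.06, edgeR adjusted p = 1.36e-05), rose as well. ITGA6, the alpha chain that pairs with ITGB4, fell (-0.65 ± 0.06, edgeR adjusted p = 1.27e-08). Beside these values, DSP and PPL differed between the groups by -3.47 and 0.25 on the same log2 scale, so plakin mRNAs moved in both directions.

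**Figure D4:**
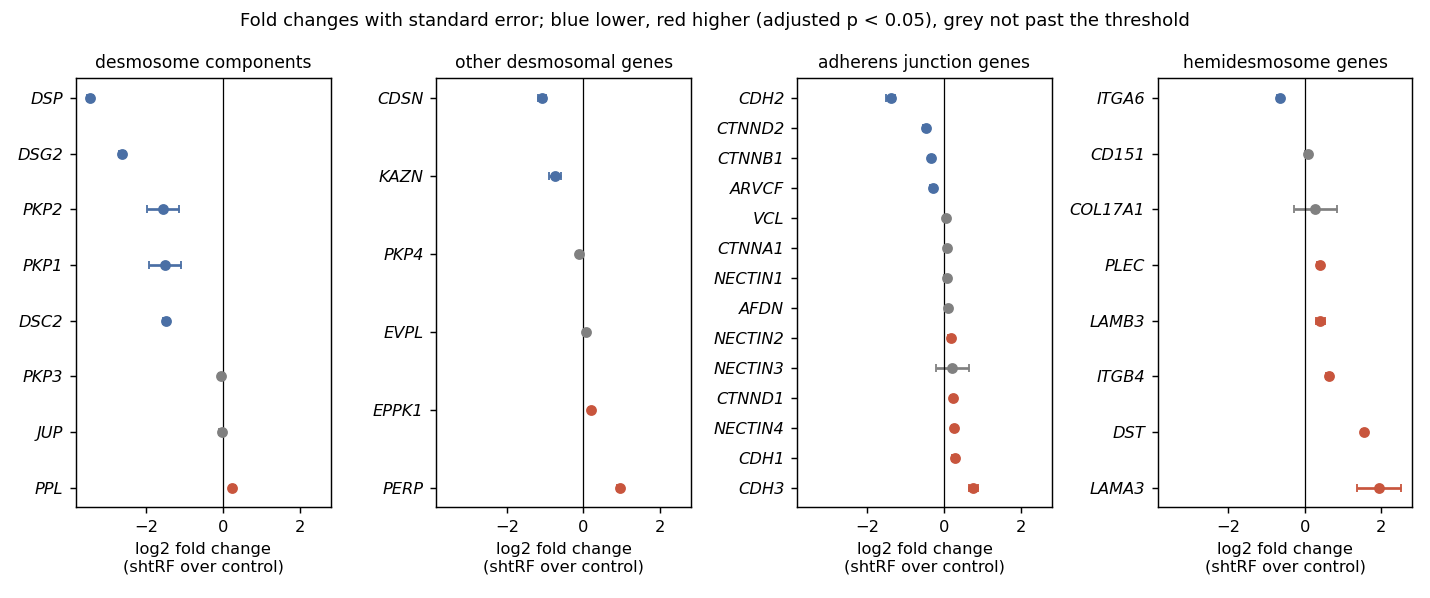
Log2 fold change (shtRF over control) ± SE of each tested gene among the desmosome components, other desmosomal genes, adherens junction genes and hemidesmosome genes, coloured by whether the gene was lower (blue) or higher (red) at an edgeR adjusted p under 0.05 or not past it (grey). DSP at -3.47 and DSG2 at -2.63 have the lowest values shown, and DST at 1.54 is the abundant gene with the highest.

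Keratins are the filaments that desmoplakin holds. Of 18 listed, 14 were tested, 5 were lower and 4 were higher (18.9% and 20.6% of all genes tested). The median log2 fold change was 0.07. KRT4 (3.31 ± 0.12, edgeR adjusted p = 4.60e-15), KRT8 (0.79 ± 0.06, edgeR adjusted p = 3.88e-10) and KRT18 (0.64 ± 0.06, edgeR adjusted p = 5.10e-09) rose, the last pair being the keratins of simple epithelia. KRT23 (-2.14 ± 0.15, edgeR adjusted p = 1.34e-10), KRT15 (-0.51 ± 0.14, edgeR adjusted p = 0.00646) and KRT10 (-0.41 ± 0.12, edgeR adjusted p = 0.0105) fell. The remaining lower keratins had a mean under 1 CPM over the 6 libraries. They were KRT17 (-1.42 ± 0.40, edgeR adjusted p = 0.00759) and KRT16 (-1.30 ± 0.25, edgeR adjusted p = 2.36e-04). KRT19, the most abundant per length, was at 1045 ± 50.7 and 1077 ± 49.8 CPM (edgeR adjusted p = 0.584). Without control replicate 2 the number of lower keratins was 3.

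Transcription factors known for epithelial identity or for its loss were examined because several act on junction genes. Of 19 listed, 15 were tested, with 6 lower and 5 higher (18.9% and 20.6% of all genes tested). The median log2 fold change was -0.05. KLF4 (1.38 ± 0.11, edgeR adjusted p = 2.38e-09) and ELF3 (0.72 ± 0.06, edgeR adjusted p = 1.91e-09) rose. TP63 (-0.54 ± 0.18, edgeR adjusted p = 0.0201), CEBPA (-0.42 ± 0.07, edgeR adjusted p = 2.60e-05, with 43.4% of its exonic bases shared) and CEBPB (-0.41 ± 0.14, edgeR adjusted p = 0.0226, with overlapping groups) fell. EHF, the most abundant, went from 266 ± 18.3 to 221 ± 7.51 CPM (-0.27 ± 0.06, edgeR adjusted p = 7.39e-04). Among the repressors that bind E-boxes, SNAI1, SNAI2, TWIST1 and ZEB2 had too few counts to be tested, and ZEB1 went from 1.64 ± 0.525 to 2.44 ± 0.235 CPM (0.57 ± 0.20, edgeR adjusted p = 0.0292). Its nearest values were close, at 2.24 CPM in control replicate 2 and 2.26 CPM in shtRF replicate 2. Also past the threshold, in differing directions and named after their values were seen, were the grainyhead genes GRHL1 (0.16), GRHL2 (-0.16) and GRHL3 (-0.33). Leaving out a single library left as few as 3 lower (without shtRF replicate 2) and as few as 2 higher (without control replicate 1, control replicate 3 or shtRF replicate 3).

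Genes that move, modify, shed or internalise desmosomal proteins also went both ways. Of 16 listed, 15 were tested, 4 were lower and 6 were higher (18.9% and 20.6% of all genes tested). The median log2 fold change was 0.13. KIF5B, a kinesin heavy chain, rose from 743 ± 15.6 to 1049 ± 39.9 CPM (0.50 ± 0.05, edgeR adjusted p = 1.56e-07). ADAM10, a sheddase that cuts DSG2 (0.30 ± 0.05, edgeR adjusted p = 6.89e-05), and ZDHHC5, a palmitoyltransferase (0.30 ± 0.05, edgeR adjusted p = 7.89e-05), rose. FLOT1 (-0.32 ± 0.05, edgeR adjusted p = 4.21e-05) and FLOT2 (-0.24 ± 0.06, edgeR adjusted p = 0.00207), which encode flotillins, fell. The remaining lower genes had few counts. EGFR went from 1.28 ± 0.203 to 0.195 ± 0.0942 CPM (-2.69 ± 0.35, edgeR adjusted p = 1.95e-06) and SRC from 0.428 ± 0.0755 to 0.102 ± 0.0636 CPM (-2.08 ± 0.53, edgeR adjusted p = 0.00317).

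Genes whose pattern over the 6 libraries was most like that of DSP or DSG2 were ranked by the root mean square difference of centred log2(CPM + 1) values among 14697 genes with a mean of at least 1 CPM. For DSP they were IFI44L (difference 0.124), NDRG1 (0.278) and ASS1 (0.297). For DSG2 they were PRICKLE1 (0.114), with 28.7% of its exonic bases shared, DSG2-AS1 (0.128) and MEF2C (0.156). Adding 1 CPM shrinks the differences of genes with low levels, so a small value does not mean an equal fold change. PRICKLE1 went from 9.83 ± 0.339 to 0.749 ± 0.123 CPM and MEF2C from 10.1 ± 0.516 to 0.623 ± 0.160 CPM, with log2 fold changes of -3.71 and -4.03 against -2.63 for DSG2. IFI44L went from 48.7 ± 1.51 to 3.49 ± 0.276 CPM, with a log2 fold change of -3.80 against -3.47 for DSP. Over these libraries the pattern is mainly the difference between the groups, which had served to select DSP and DSG2. The ranking is therefore a description. It holds no other desmosome component. DSP had a larger fold change than DSG2, and the other tested components had smaller fold changes than both.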

How the data were processed

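Counts per gene were deposited by the authors for 3 control and 3 shtRF libraries of MDA-MB-453 cells at day 3. The submitters' processing notes name Trimmomatic 0.36, featureCounts, Subread 1.5.1, edgeR 3.12.1 and build GRCh38, while the aligner, the annotation and the strand setting of the counting were not given in the sources used here. The libraries were strand-specific and paired-end. Among counts of 1 to 4, the even share was 74.2% to 77.1%, whereas it was 49.7% to 50.7% for counts of at least 1000. A count may therefore exceed the number of independent fragments behind it. The even share at high counts does not show that they are exempt. The authors also deposited RPKM values, of which 4997 complete genes were held here. For 4991 of them 100% of the values equalled the count scaled by exonic length and library total within a relative tolerance of 0.001, and RPKM of all genes was recomputed from the counts in that way.

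The counts were tested with edgeR 4.0.16 in R 4.3.3 (filterByExpr with a minimum count of 10, TMM scaling, glmQLFit and glmQLFTest on group alone), with Benjamini-Hochberg adjustment over 19628 genes and a threshold of 0.05. TMM factors were 0.961 to 1.03. CPM values use the TMM factors, and errors are SD over 3 libraries or SE of the log2 fold change. On simulated counts the test recovered 195 of 200 changed genes among 19286 tested, with 14 false calls among 209. The changed genes all had at least 1 CPM and differed by 2-fold or more. Recovery of smaller changes, or of genes as rare as PKP1 and PKP2, was not measured. The 10 genes and the other gene lists were chosen with earlier results of these data known. Genes not reported here were left out of the lists after the tests had been run. Of 131 list entries 130 matched the table, 1 of them by an older symbol (AFDN as MLLT4). Named genes are the 10 components, up to 3 genes with the largest rise and 3 with the largest fall of each other list at an adjusted p under 0.05 and a mean of at least 1 CPM, the most abundant gene of each list, cluster genes of at least 1 CPM, and the 3 genes closest in pattern to DSP and to DSG2. Of the cluster, LRRC37A7P and RNF125 were named after their values were seen, and so were PKP4, LAMA3, KRT16, KRT17, GRHL1, GRHL2, GRHL3, EGFR and SRC among the lists. Promoter sequences and motif counts came from RefSeq (GRCh38.p14). Alternatives were RLE and upper quartile scaling, 2 other filters, DESeq2 1.42.0, limma-trend (limma 3.58.1) on log2(RPKM + 1) and log2(RPKM + 0.1), a replicate block, halved counts and each library left out in turn.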

Additional observations from a re-analysis of the deposited data

How the results depend on the processing

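Of 118 fold changes of the 8 tested components under 15 alternatives, 117 kept their side of the threshold, and the exception was PKP1 on log2(RPKM + 1), at -0.10. All components past the threshold kept their direction, while JUP, which was not past it, turned positive without control replicate 2 and without shtRF replicate 2. DSP ranged from -3.52 to -2.98, DSG2 from -2.71 to -2.07, DSC2 from -1.53 to -1.01, PPL from 0.19 to 0.29, PKP1 from -1.83 to -0.10, PKP2 from -2.14 to -0.10, PKP3 from -0.10 to -0.0043 and JUP from -0.10 to 0.02. The smallest differences of DSP, DSG2, DSC2, PKP1 and PKP2 came from log2(RPKM + 1). Adding 1 RPKM shrinks the differences of genes with low levels, and PKP1 and PKP2 each had a control mean of 0.107 RPKM. With at least 10 counts in every library 3 components were lower, since PKP1 and PKP2 were then not tested, and 2 turnover genes were lower. With limma-trend on either RPKM scale, 1 other desmosomal gene, 3 adherens junction genes and 3 hemidesmosome genes were higher, as were 2 transcription factors on log2(RPKM + 1) and 3 on log2(RPKM + 0.1), and the cause was not tested. With 1 library left out, lower keratins numbered 3 to 5, lower transcription factors 3 to 6 and higher transcription factors 2 to 5. As shares of raw counts, which ignore length, the differences in percentage points were -1.32 for DSG2, -1.62 for PKP2 and -20.7 for DSP, against -1.59, -0.89 and -16.5 by RPKM. Replicate numbers did not pair the libraries (correlations of same-numbered deviations from -0.0029 to 0.0185), and with a replicate block 3776 genes were lower and 4123 higher, 5 and 1 of them components. Of 690 values of other named genes 659 kept their call, 29 lost it (EPPK1, CDH1, LAMB3, KRT10, TP63, CEBPB and ZEB1), 2 gained it (RP11-53I6.2) and none past the threshold reversed, while TRAPPC8, RP11-326K13.4 and KRT19, which were not past it, changed sign in some. Values under 10 counts are limited by depth.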
